A study of Homo sapiens with 12 samples.

Results

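Mitochondrial ribosomal proteins are made from nuclear genes and are named MRPL or MRPS for the large or the small subunit of the mitochondrial ribosome. A row of the count tables was taken as a member when its symbol was MRPL or MRPS followed by a number and, in some cases, a letter from A to C. This gave 78 members among 60648 genes. Of these, 51 encode proteins of the large subunit and 26 encode proteins of the small subunit. The remaining member, MRPS36, is now known as a subunit of the oxoglutarate dehydrogenase complex. MRPS30 and MRPS18A carry small-subunit symbols but sit in the large subunit, and they were counted there.

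The data are messenger RNA counts from MOLM13 and OCIAML5, both established human acute myeloid leukemia lines. There were 6 groups of 2 libraries. They were MOLM13 with PSPC1 knockdown and MOLM13 controls, OCIAML5 with PSPC1 knockdown and its OCIAML5 controls, and, from a separate experiment, OCIAML5 with PU.1 knockdown and its own OCIAML5 controls. All 12 libraries came from cells infected with lentivirus and then kept by puromycin or by sorting for GFP, and the labels do not say which of these was used for a group. MOLM13 grew in 10% FBS without GM-CSF, and OCIAML5 grew in 20% FBS with 10 ng/mL GM-CSF, so line and medium cannot be told apart. No label names the hairpins or says that the pair of libraries in a group came from independent cultures. P-values therefore reflect how far these libraries varied, and that variation may be technical.

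The mitochondrial ribosome translates the few messages encoded by mitochondrial DNA, all of them for subunits of the respiratory chain and the ATP synthase. Its ribosomal RNAs are transcribed inside the organelle, whereas its proteins are translated in the cytosol and imported. Some of these proteins have relatives in bacterial ribosomes, and others are specific to mitochondria. Here a member counts as having a bacterial relative where its systematic name begins with u or b, the prefixes for proteins shared with bacteria, and as having none where it begins with m. In acute myeloid leukemia, mitochondrial translation is studied as a possible drug target. PSPC1 is an RNA-binding protein of nuclear paraspeckles, and PU.1, the product of SPI1, is a transcription factor of the myeloid lineage.

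Total counts were 15.4 to 22.8 M per library in the PSPC1 experiment and 26.3 to 39.7 M in the PU.1 experiment. Levels are given as CPM, counts scaled to a common library size with TMM factors, so a level is relative to the rest of its library. A member was called higher or lower when its Benjamini-Hochberg adjusted p from edgeR's quasi-likelihood test was under 0.05. PSPC1 stood at 27.1 and 27.7 CPM in MOLM13 with PSPC1 knockdown, against 130 and 135 CPM in the MOLM13 controls. It stood at 18.9 and 19.2 CPM in OCIAML5 with PSPC1 knockdown, against 99.1 and 98.8 CPM in its controls. SPI1 stood at 47.5 and 46.2 CPM in OCIAML5 with PU.1 knockdown, against 227 and 204 CPM in its controls, and in the same libraries PSPC1 stood at 59.8 and 58.2 CPM, against 106 and 113 CPM. The 8 myeloid markers include SPI1 itself. Of these 8, summed to 444 to 1432 CPM per library, only ANPEP was near 0, at up to 0.478 CPM. The 4 erythroid, 4 epithelial and 4 fibroblast markers summed to at most 2.19 CPM in any library, whereas NCAM1, listed here as a lymphoid marker, reached 104 CPM, and PAX5, a B-cell gene, reached 23.9 CPM in OCIAML5. The T and NK lymphocyte markers summed to 66.1 CPM in MOLM13 with PSPC1 knockdown, against 97.4 CPM in the controls, to 24.7 CPM in OCIAML5 with PSPC1 knockdown, against 101 CPM in the controls, and to 97.9 CPM with PU.1 knockdown, against 84.6 CPM in the controls (means of 2). The B lymphocyte markers summed to 3.05 CPM against 3.70, 13.2 CPM against 23.7 and 1.202 CPM against 5.92, each knockdown against its controls in the same order. The myeloid markers summed to 1427 CPM in MOLM13 with PSPC1 knockdown, against 1212 CPM in the controls. They summed to 1070 CPM in OCIAML5 with PSPC1 knockdown, against 999 CPM in the controls. Single myeloid markers moved both ways. Of the 7 tested, 3 were higher and 2 lower in MOLM13 with PSPC1 knockdown, with log2 fold changes down to -3.51. In OCIAML5 with PSPC1 knockdown 2 were higher and 3 lower, all 3 by more than 2-fold and down to -3.22. The part of these markers in the members' changes was not tested. These were bulk libraries, in which fewer cells of a type and less RNA per cell cannot be told apart.

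Across all 3 knockdowns, 76 members were tested, and 28 of them were lower in every one. Of the 15396 genes tested in all 3, 14.4% were lower in every one. Only MRPL45 and MRPL51 were higher in every knockdown, where 9.61% of all genes were. A further 9 members had no call in any of the 3. The 10 members lower throughout with the largest smallest change were MRPL9, MRPL17, MRPS34, MRPS7, MRPL4, MRPS12, MRPL18, MRPS16, MRPS26 and MRPL21. These comprise proteins of both subunits. On GRCh38, GENCODE places MRPL9 at chr1:151759643-151763564 (minus strand), MRPL17 at chr11:6680782-6683401 (minus strand), MRPS34 at chr16:1771890-1773155 (minus strand), MRPL51 at chr12:6491886-6493841 (minus strand) and MRPL45 at chr17:38297023-38323218 (plus strand).

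MRPL9, the relative of bacterial protein L9, fell in all 3 knockdowns. It stood at 12.7 and 11.4 CPM in MOLM13 with PSPC1 knockdown, against 29.6 and 32.9 CPM in the controls. In OCIAML5 it stood at 18.0 and 16.4 CPM with PSPC1 knockdown, against 38.0 and 43.4 CPM in the controls. With PU.1 knockdown it stood at 25.5 and 24.5 CPM, against 43.9 and 46.1 CPM in the controls. No knockdown library reached any control library of its experiment. The log2 fold changes were -1.38 ± 0.120, -1.23 ± 0.109 and -0.85 ± 0.074 (SE). The exons of MRPL9 share 38.5% of their bases with exons of other genes, chiefly OAZ3 on the opposite strand. Whether reads were assigned by strand is not stated, so such pairs may share reads.

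MRPL17, a large-subunit protein with a bacterial relative, had the most negative log2 fold change of all members in both PSPC1 knockdowns. It stood at 13.8 and 17.3 CPM in MOLM13 with PSPC1 knockdown, against 46.9 and 43.6 CPM in the controls (log2 fold change -1.54 ± 0.112). In OCIAML5 with PSPC1 knockdown it stood at 11.3 and 12.9 CPM, against 38.0 and 41.8 CPM in the controls (log2 fold change -1.73 ± 0.114). With PU.1 knockdown it stood at 35.3 and 32.8 CPM, against 54.3 and 52.7 CPM in the controls, a log2 fold change of -0.66 ± 0.068. The change was larger with PSPC1 knockdown than with PU.1 knockdown in OCIAML5, by 1.09 ± 0.127 on the log2 scale for PU.1 minus PSPC1 (adjusted p = 6.56e-10).

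MRPS34, a mitochondria-specific protein of the small subunit, showed similar sizes of change throughout. It stood at 37.9 and 39.4 CPM in MOLM13 with PSPC1 knockdown, against 65.7 and 64.5 CPM in the controls. It stood at 52.9 and 49.96 CPM in OCIAML5 with PSPC1 knockdown, against 81.6 and 85.5 CPM in the controls. With PU.1 knockdown the levels were 61.7 and 52.5 CPM, against 81.0 and 87.9 CPM in the controls. The log2 fold changes were -0.75 ± 0.075, -0.70 ± 0.070 and -0.57 ± 0.061, and neither difference between them passed its test (adjusted p = 0.767 between lines and 0.239 between knockdowns).

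Against this direction, MRPL51, a large-subunit protein without a bacterial relative, was higher in every knockdown. It stood at 47.7 and 45.7 CPM in MOLM13 with PSPC1 knockdown, against 36.5 and 39.2 CPM in the controls (log2 fold change 0.30 ± 0.093, adjusted p = 0.00455). OCIAML5 libraries held 37.6 and 36.3 CPM with PSPC1 knockdown, against 17.9 and 22.7 CPM in the controls. With PU.1 knockdown they held 43.6 and 45.0 CPM, against 20.6 and 23.3 CPM in that experiment's controls. The log2 fold changes there were 0.87 ± 0.101 and 1.01 ± 0.077. The MOLM13 call was lost without knockdown replicate 1 (adjusted p = 0.0503) and without control replicate 1 (adjusted p = 0.086). The exons of MRPL51 share 31.3% of their bases with NCAPD2 on the opposite strand.

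MRPL45, a mitochondria-specific large-subunit protein that binds the inner membrane, was the other. It stood at 91.5 and 82.6 CPM in MOLM13 with PSPC1 knockdown, against 65.9 and 69.1 CPM in the controls. In OCIAML5 it stood at 74.5 and 77.0 CPM with PSPC1 knockdown, against 58.3 and 50.9 CPM in the controls. With PU.1 knockdown it stood at 65.9 and 68.8 CPM, against 52.5 and 51.0 CPM in the controls. In every experiment both knockdown libraries lay above both controls. Its log2 fold changes were 0.37 ± 0.070, 0.47 ± 0.071 and 0.38 ± 0.061. Its exons overlap those of no other gene.

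**Figure D1:**
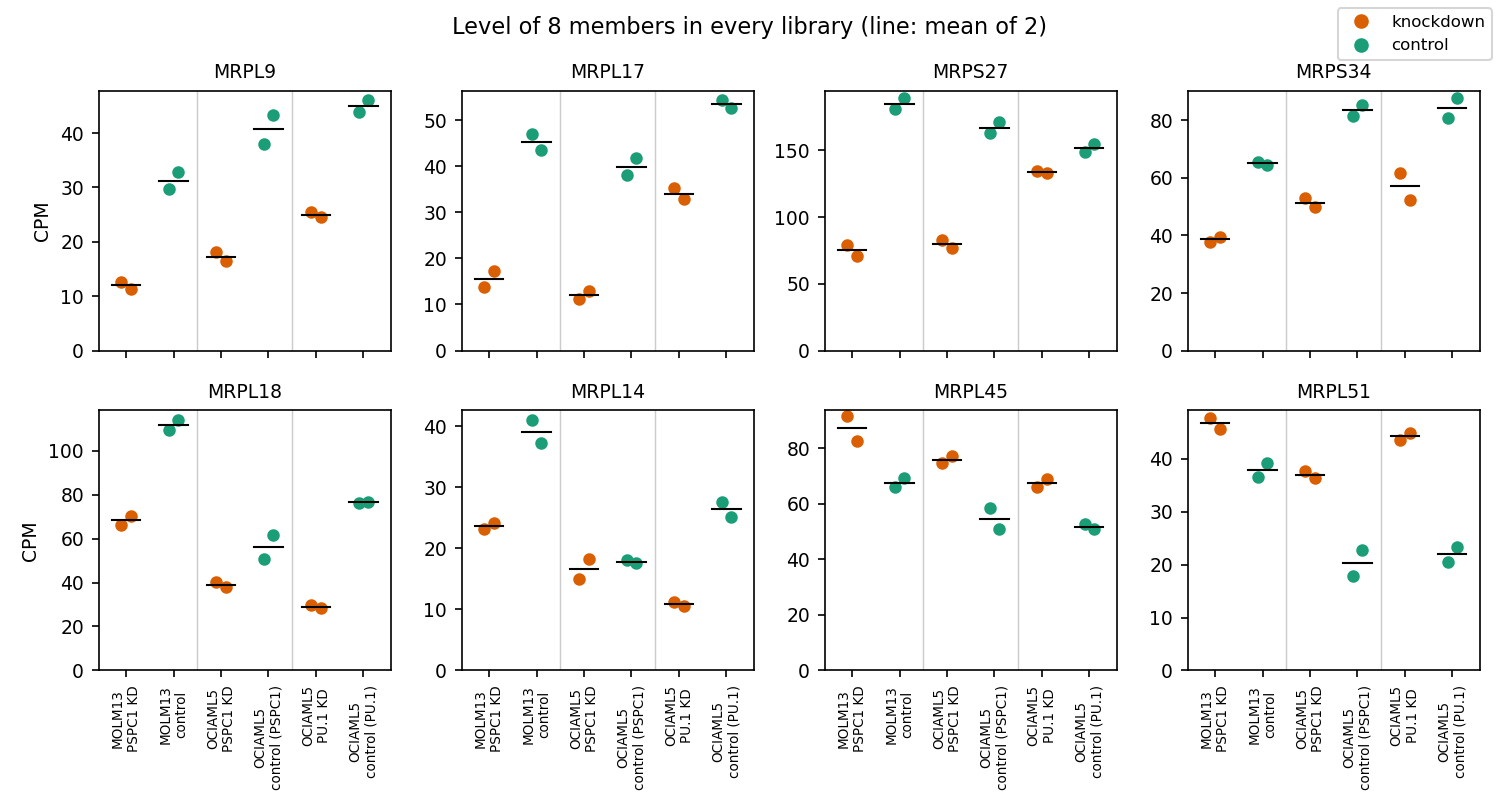
CPM in every library of 8 members, with points for libraries, a line for the mean of 2 and each knockdown left of its controls. MRPL9, MRPL17, MRPS27, MRPS34 and MRPL18 lie below the controls in all 3 knockdowns, MRPL45 and MRPL51 lie above them, and MRPL14 overlaps its controls with PSPC1 knockdown in OCIAML5.

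The stretches before the RefSeq start of MRPS34, MRPL17, MRPL51 and MRPL45 are shown as examples. MRPS34 and MRPL17 were lower in all 3 knockdowns, and MRPL51 and MRPL45 were higher in all 3. RefSeq promoter windows on GRCh38.p14, reaching from 250 bases before the annotated start to 50 after it, were found for 69 members, in 85 windows. The 250 bases before the start are printed. Capitals mark matches on either strand to GCATGCG (the core of the NRF1 motif) or CCGGAAG (an ETS-family core). They also mark matches to GATGGCG (part of the YY1 motif) or CACGTG (an E-box). The windows lie at chr16:1773135-1773384 (minus strand), chr11:6683341-6683590 (minus strand), chr12:6493263-6493512 (minus strand) and chr17:38296918-38297167 (plus strand). GENCODE places the outermost start of each gene further out, so that 21 of the 250 bases for MRPS34, 61 for MRPL17, 145 for MRPL45 and all 250 for MRPL51 lie inside the gene as GENCODE draws it.
MRPS34: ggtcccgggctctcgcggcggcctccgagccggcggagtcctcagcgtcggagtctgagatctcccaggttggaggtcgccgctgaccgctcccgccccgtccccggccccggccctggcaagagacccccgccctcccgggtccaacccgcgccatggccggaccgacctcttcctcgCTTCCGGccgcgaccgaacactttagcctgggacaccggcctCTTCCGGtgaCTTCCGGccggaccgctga
MRPL17: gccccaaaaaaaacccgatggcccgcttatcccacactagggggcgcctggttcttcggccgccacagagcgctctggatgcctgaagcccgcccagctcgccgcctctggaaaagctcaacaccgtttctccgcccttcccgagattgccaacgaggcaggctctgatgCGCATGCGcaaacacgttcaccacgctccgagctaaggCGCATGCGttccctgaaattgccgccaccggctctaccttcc
MRPL51: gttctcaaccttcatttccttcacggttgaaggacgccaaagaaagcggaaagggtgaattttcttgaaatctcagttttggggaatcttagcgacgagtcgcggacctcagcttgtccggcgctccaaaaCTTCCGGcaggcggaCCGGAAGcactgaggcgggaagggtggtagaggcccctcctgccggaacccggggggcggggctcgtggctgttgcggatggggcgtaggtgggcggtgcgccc
MRPL45: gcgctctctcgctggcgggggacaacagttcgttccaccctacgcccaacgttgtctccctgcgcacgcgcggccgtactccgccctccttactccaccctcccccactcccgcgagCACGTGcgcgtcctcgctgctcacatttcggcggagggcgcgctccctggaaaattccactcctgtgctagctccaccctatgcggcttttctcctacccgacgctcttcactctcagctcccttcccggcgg
MRPS34, lower in all 3 knockdowns, held 3 matches to CCGGAAG, and MRPL51, higher in all 3, held 2. MRPL17 held 4 matches to GCATGCG, in 2 overlapping pairs across the strands, and MRPL45 held 1 to CACGTG. Over the full windows of 300 bases, 38.8% of the 85 member windows held CCGGAAG, where 10.3% of all 35116 RefSeq windows did. GATGGCG was in 18.8% of member windows and 4.2% of all windows, CACGTG in 10.6% and 7.26%, and GCATGCG in 8.24% and 3.91%. The last depends on its letters: a longer form of the NRF1 motif, searched first, was in 1.18% of member windows and 1.24% of all windows. A longer form of the YY1 motif was in 11.8% and 0.849%. CCGGAAG was in 40.6% of the 32 windows of members lower in all 3 knockdowns and in 37.7% of the 53 windows of the other members. These are matches of letters and not sites of binding, and windows of 1 gene can overlap.

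With PSPC1 knockdown in MOLM13, most members of both subunits fell. Of 76 members tested, 46 were lower, 4 were higher and 26 had no call. Of all 16457 genes tested, 29.5% were lower and 27.6% were higher (57.0% called either way). The median log2 fold change was -0.40 over the members and 0.006 over all genes tested, and 6 members fell by more than 2-fold. Both knockdown libraries lay below both controls for all 46 lower members, as for 99.7% of all genes called lower. Among small-subunit members, 16 of 25 fell and none rose, and among large-subunit members, 30 of 50 fell and 4 rose.

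The largest decreases after MRPL17 and MRPL9 were in MRPS27, MRPS12 and MRPL58. MRPS27, a pentatricopeptide-repeat protein of the small subunit, stood at 79.2 and 71.2 CPM in MOLM13 with PSPC1 knockdown, against 181 and 189 CPM in the controls (log2 fold change -1.30 ± 0.058). MRPS12, the relative of the bacterial decoding-site protein S12, stood at 28.1 and 25.1 CPM, against 66.6 and 59.0 CPM in the controls (log2 fold change -1.24 ± 0.092). MRPL58, a peptidyl-tRNA hydrolase built into the large subunit that can release stalled chains, stood at 11.6 and 17.6 CPM, against 32.8 and 33.0 CPM in the controls (log2 fold change -1.17 ± 0.132). Their knockdown libraries all lay below the controls. The 4 higher members were all of the large subunit, with log2 fold changes of 0.37 for MRPL45, 0.35 for MRPL10, 0.30 for MRPL51 and 0.23 for MRPL49. MRPL10 belongs to the stalk base, where translation factors bind. The call for MRPL49 was lost in 3 of the 4 fits without 1 library, with an adjusted p of up to 0.185.

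Of the 15 small-subunit members tested that have a bacterial relative, 13 fell with PSPC1 knockdown in MOLM13, with a median log2 fold change of -0.72. Of the 10 without one by their systematic names, MRPS18B among them, 3 fell (MRPS27, MRPS26 and MRPS34), with a median of -0.15. In the large subunit the counts were 19 of 30 with a median of -0.38 and 11 of 20 with a median of -0.32. In OCIAML5, 8 of 15 with a bacterial relative and 7 of 10 without one fell with PSPC1 knockdown, with medians of -0.36 and -0.34. Of all genes tested, 29.5% were lower with PSPC1 knockdown in MOLM13 and 28.4% in OCIAML5. The 3 of 10 in MOLM13 thus lies near the share of all genes. These counts are descriptions, and no test was made between the classes.

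PSPC1 knockdown in OCIAML5 gave 41 lower, 7 higher and 28 uncalled members of 76. Of all genes tested, 28.4% were lower and 27.5% were higher (56.0% called either way). The median log2 fold change was -0.29 over the members and 0.017 over all genes. Of the small-subunit members 15 of 25 fell and none rose, and of the large-subunit members 26 of 50 fell and 7 rose. After MRPL17 and MRPL9, the largest decreases were in MRPL58, MRPS27 and MRPL2. MRPS27 stood at 82.5 and 76.6 CPM in OCIAML5 with PSPC1 knockdown, against 163 and 171 CPM in the controls (log2 fold change -1.07 ± 0.057). MRPL58 stood at 14.9 and 13.6 CPM, against 26.8 and 33.4 CPM in the controls (log2 fold change -1.07 ± 0.130). MRPL2, a protein next to the peptidyl transferase center, was near the low end at 2.13 and 2.22 CPM, against 4.40 and 3.86 CPM in the controls.

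The higher members in OCIAML5 with PSPC1 knockdown were MRPL51, MRPL49, MRPL44, MRPL45, MRPL28, MRPL16 and MRPL34. MRPL49, a mitochondria-specific large-subunit protein, stood at 46.6 and 48.8 CPM with PSPC1 knockdown, against 27.3 and 29.9 CPM in the controls (log2 fold change 0.74 ± 0.087). MRPL44, a large-subunit protein with a ribonuclease III-like fold, stood at 64.2 and 71.4 CPM, against 42.3 and 47.8 CPM in the controls (log2 fold change 0.59 ± 0.076). MRPL28, which has a bacterial relative, stood at 91.4 and 80.5 CPM, against 63.7 and 62.8 CPM in the controls (log2 fold change 0.45 ± 0.068). The groups did not overlap for these 3 members, whereas for MRPL34 they did, at 32.3 and 39.95 CPM with knockdown, against 28.1 and 32.4 CPM in the controls. The MRPL34 call was lost without knockdown replicate 2 (adjusted p = 0.509) or control replicate 1 (adjusted p = 0.28), and in a fit of the 4 OCIAML5 libraries alone (adjusted p = 0.0515).

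PU.1 knockdown in OCIAML5 gave 52 lower, 4 higher and 21 uncalled members of 77. Of the 16861 genes tested, 30.9% were lower and 29.6% were higher (60.4% called either way). The median log2 fold change was -0.28 over the members and 0.020 over all genes. Of the large-subunit members 36 of 50 fell and 4 rose, and of the small-subunit members 16 of 26 fell and none rose. In the large subunit, 26 of the 30 with a bacterial relative fell (median -0.43) and 10 of the 20 without one fell (median -0.22). In the small subunit the counts were 9 of 16 (median -0.27) and 7 of 10 (median -0.17). All 7 tested myeloid markers were lower in the same libraries, and the 8 together summed to 455 CPM with PU.1 knockdown, against 807 CPM in the controls (means of 2). SPI1, the gene knocked down here, is among these markers, and its own fall, given above, makes up a large part of that of the sum. The part of the markers in the members' change was not tested. With library size alone as the scale, 37 members were lower and 12 were higher, where 23.7% of all genes were lower and 39% were higher. The member median was then -0.13, and the median of all genes moved up by 0.15.

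The 3 largest decreases with PU.1 knockdown were in MRPL18, MRPL14 and MRPL13. MRPL18, a protein of the central protuberance, stood at 29.8 and 28.3 CPM with PU.1 knockdown, against 76.3 and 76.9 CPM in the controls (log2 fold change -1.40 ± 0.065). MRPL14, which binds the assembly factor MALSU1, stood at 11.2 and 10.5 CPM, against 27.6 and 25.2 CPM in the controls (log2 fold change -1.28 ± 0.099). MRPL13, which has a bacterial relative, stood at 27.8 and 28.8 CPM, against 60.2 and 61.96 CPM in the controls (log2 fold change -1.11 ± 0.068). All 3 fell by more than 2-fold, with no overlap between groups. MRPL9, also among the 5 largest decreases in both PSPC1 knockdowns, and MRPL55, both of the large subunit, were next, at log2 fold changes of -0.85 and -0.80. The 4 higher members were MRPL51, MRPL45, MRPL10 and MRPL32, and among them MRPL10 stood at 46.2 and 47.9 CPM, against 35.7 and 36.7 CPM in the controls (log2 fold change 0.38 ± 0.069).

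**Figure D2:**
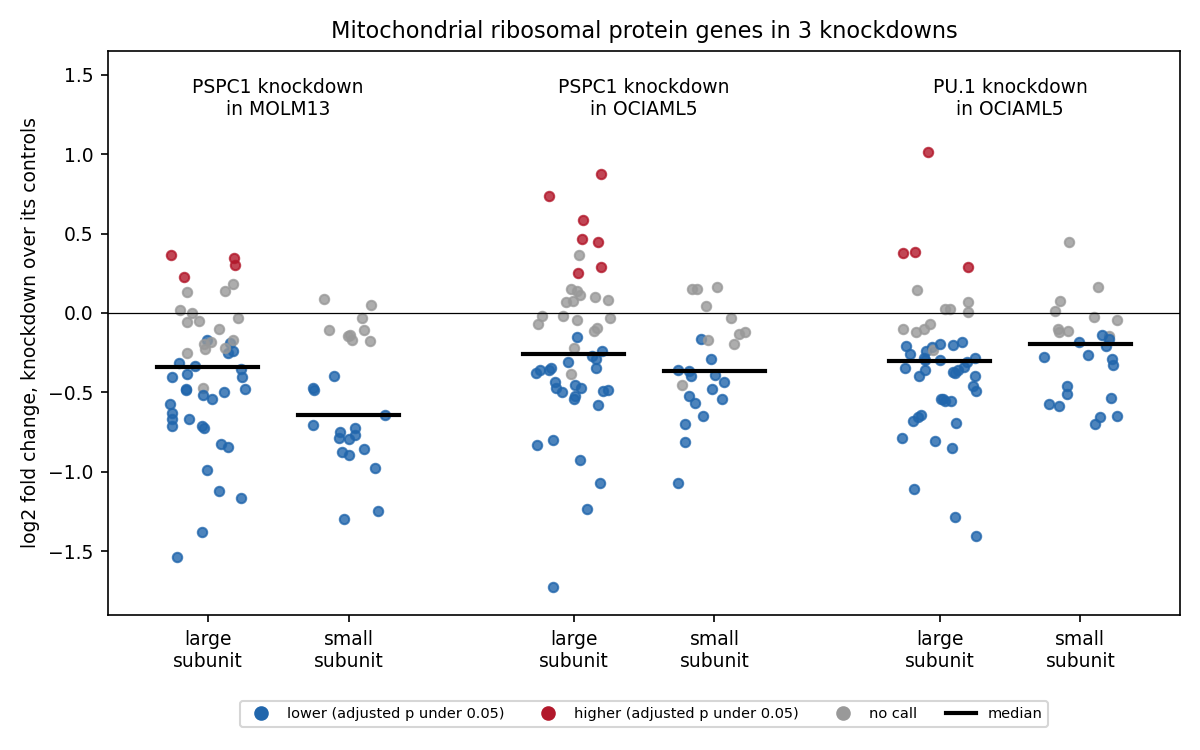
Log2 fold change of each tested member, knockdown over its own controls, by subunit, with blue for lower and red for higher at an adjusted p under 0.05, grey for no call and a bar for the median. The small-subunit median is -0.64 with PSPC1 knockdown in MOLM13, and no small-subunit member was called higher in any of the 3 knockdowns.

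Summed over all 78 members, the level was 3114 ± 16.4 CPM in MOLM13 with PSPC1 knockdown, against 4101 ± 18.8 CPM in the controls (SD, n = 2 each). It was 2962 ± 1.58 CPM in OCIAML5 with PSPC1 knockdown, against 3576 ± 150.1 CPM in the controls, and 3237 ± 2.80 CPM with PU.1 knockdown, against 3988 ± 31.2 CPM in the controls. The sums were lower by 24.1%, 17.2% and 18.8%. Each difference exceeded the SD of both its groups, and no permutation test of 2 libraries against 2 can reach 0.05. With library size alone as the scale, the log2 ratios of the sums were -0.35, -0.19 and -0.15 in place of -0.40, -0.27 and -0.30.

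The ratio of small-subunit to large-subunit sums was lower with PSPC1 knockdown in both lines. It was 0.495 and 0.499 in MOLM13 with PSPC1 knockdown, against 0.554 and 0.557 in the controls. In OCIAML5 it was 0.503 and 0.498 with PSPC1 knockdown, against 0.577 and 0.578 in the controls. With PU.1 knockdown it was 0.544 and 0.544, against 0.527 and 0.539 in the controls, a difference of 2.10% in the means. MRPS27 made up 6.94 to 8.38% of the small-subunit sum with PSPC1 knockdown and 12.5 to 12.9% in the controls of that experiment. Without MRPS27 the ratio was 0.457 and 0.464 in MOLM13 with PSPC1 knockdown, against 0.485 and 0.485 in the controls, and 0.461 and 0.459 in OCIAML5 with PSPC1 knockdown, against 0.502 and 0.504 in the controls. The means of the ratio differed by -10.6% in MOLM13 and -13.3% in OCIAML5 with MRPS27 counted, and by -5.11% and -8.59% without it. With PU.1 knockdown the ratio without MRPS27 was 0.480 and 0.480, against 0.470 and 0.479 in the controls. No test was made on these ratios.

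**Figure D3:**
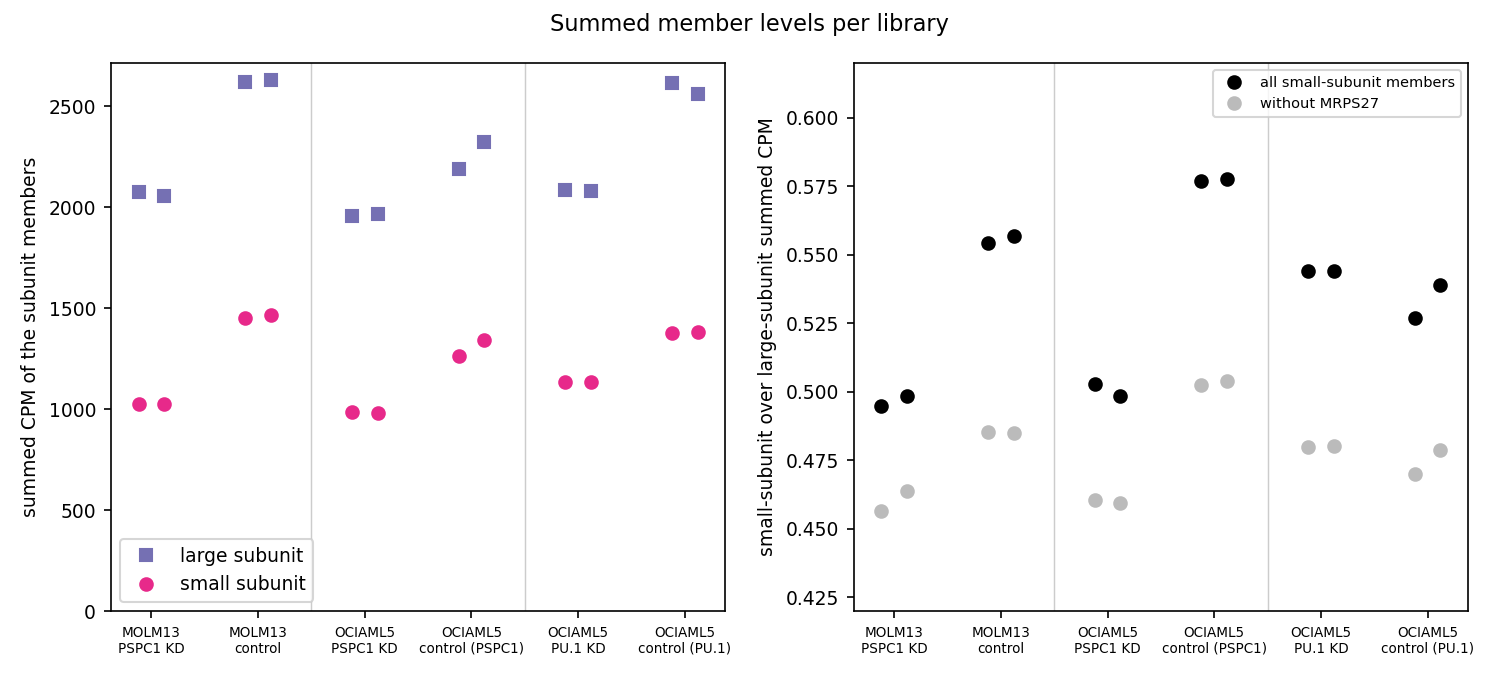
Left, summed CPM of large-subunit and small-subunit members in every library; right, small-subunit over large-subunit sum with and without MRPS27, on an axis that does not start at 0. The ratio is about 0.50 in PSPC1 knockdown libraries of both lines and at least 0.527 in every other library.

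The PSPC1 effects of the members in the 2 lines, which share no library, had a Pearson correlation of 0.73 and a Spearman correlation of 0.63 over 76 members. These are correlations across genes, which are not independent replicates, and both effects come from 1 table and 1 hairpin target. Over all 15396 genes tested in the 3 knockdowns the same correlations were 0.56 and 0.61. In both lines 31 members (40.8%) were lower and 3 (3.95%) were higher, where 21.3% and 17.6% of those genes were. MRPL16 was the single member called in opposite directions, as were 3.82% of those genes. For PSPC1 and PU.1 knockdown in OCIAML5 the correlations were 0.43 and 0.44 over the members and 0.40 and 0.43 over all those genes. Of the members 36 (47.4%) were lower in both, 2 (2.63%) were higher in both and 4 (5.26%) were called in opposite directions, where the shares of those genes were 18.5%, 13.9% and 9.92%. The 4 were MRPL16, MRPL28, MRPL34 and MRPL49, each higher with PSPC1 knockdown and lower with PU.1 knockdown. In the PU.1 experiment, the MRPL28 call was lost without knockdown replicate 2 (adjusted p = 0.06), and the MRPL49 call without knockdown replicate 1, knockdown replicate 2 or control replicate 1 (adjusted p of 0.0621 to 0.101).

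**Figure D4:**
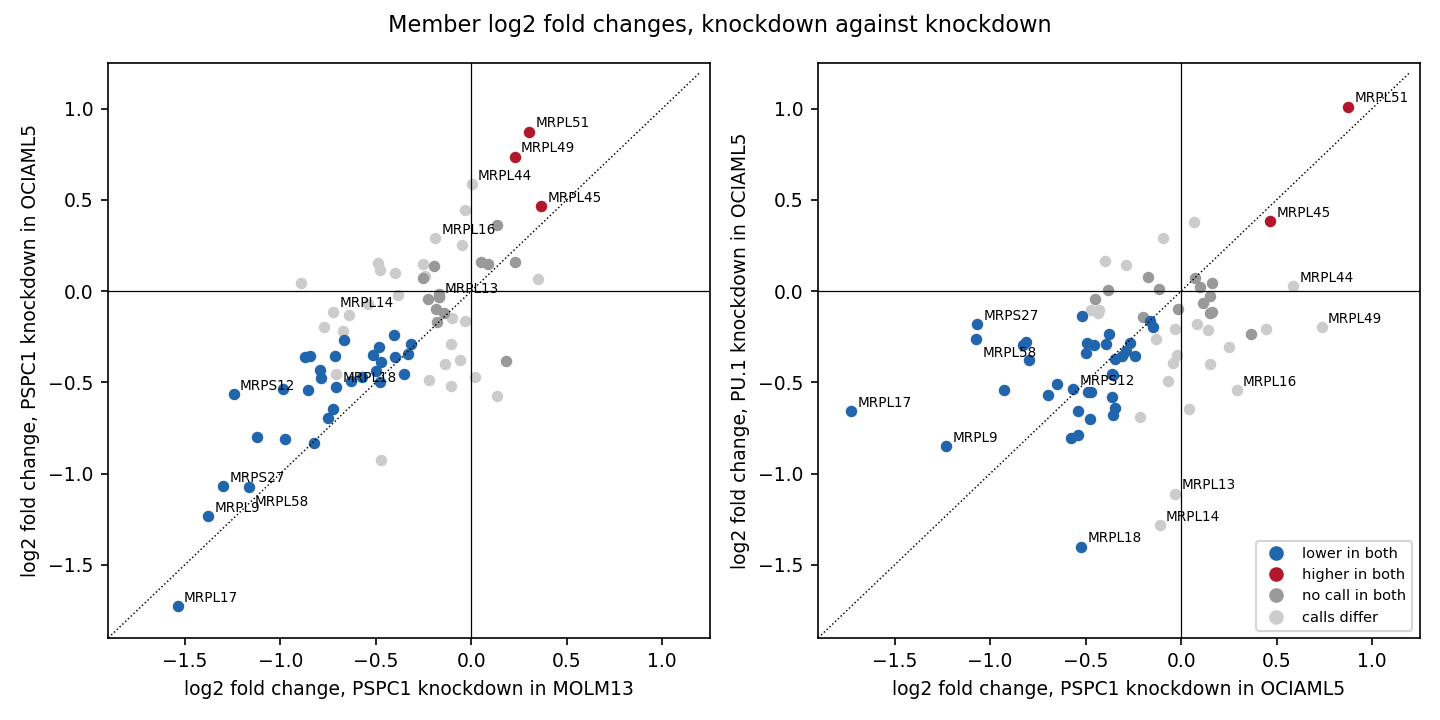
Member log2 fold changes with PSPC1 knockdown in OCIAML5 against those in MOLM13 (left), and with PU.1 knockdown against PSPC1 knockdown in OCIAML5 (right), with colour for the calls and a dotted line where both are equal. MRPL17 and MRPL9 lie at the lower left of both plots, and MRPL13, MRPL14 and MRPL18 lie far below the line on the right.

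The PSPC1 effect itself was tested for a difference between lines. This test used the OCIAML5 controls of the PSPC1 experiment alone, and OCIAML5 controls differed between experiments in some members, as given below. For OCIAML5 minus MOLM13, 23 of 76 members were higher and 4 were lower, where 18.0% and 12.5% of all genes were (30.5% either way). The median difference was 0.16 over the members and 0.061 over all genes. Among the positive ones were MRPS12 (0.68 ± 0.131, adjusted p = 4.71e-05) and MRPL14 (0.61 ± 0.163, adjusted p = 0.00263). MRPL14 stood at 23.2 and 24.2 CPM in MOLM13 with PSPC1 knockdown, against 41.1 and 37.2 CPM in MOLM13 controls. Its levels overlapped in OCIAML5, at 14.9 and 18.2 CPM in OCIAML5 with PSPC1 knockdown, against 18.0 and 17.6 CPM in the controls. The negative ones were MRPL55, MRPL1, MRPS18B and MRPL24, at -0.71, -0.49, -0.41 and -0.32. MRPL1, the protein of the mobile stalk, stood at 74.5 and 61.1 CPM in MOLM13 with PSPC1 knockdown, against 63.4 and 70.3 CPM in MOLM13 controls. Its levels did not overlap in OCIAML5, at 34.2 and 33.7 CPM in OCIAML5 with PSPC1 knockdown, against 45.4 and 49.1 CPM in the controls. Without OCIAML5 control replicate 2, only 2 members were called negative.

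Between the knockdowns in OCIAML5, PU.1 minus PSPC1, 16 of 77 members were called positive and 16 negative, where 22.8% and 22.9% of all genes were (45.6% either way). The member counts are thus near the share of all genes. Negative differences, where PU.1 knockdown gave the lower value, were largest for MRPL14 (-1.16 ± 0.162), MRPL13 (-1.06 ± 0.108), MRPL49 (-0.92 ± 0.119) and MRPL18 (-0.86 ± 0.110). Positive ones were largest for MRPL17, MRPS27 (0.90 ± 0.074), MRPL58 (0.83 ± 0.144) and MRPS33 (0.58 ± 0.145). All 16 negative members were of the large subunit, and the positive ones were 11 large-subunit and 5 small-subunit members. Without OCIAML5 control replicate 1 of the PSPC1 experiment, 9 members were negative and 20 positive.

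The control libraries of the lines differed too. For MOLM13 minus OCIAML5 controls of the PSPC1 experiment, 36 of 76 members were higher in MOLM13 and 7 were lower, where 30.0% and 30.7% of all genes were (60.6% either way). The largest differences upward were in MRPS28, MRPL13, MRPL14 and MRPL34. MRPL13 stood at 120 and 124 CPM in MOLM13 controls, against 50.2 and 59.8 CPM in OCIAML5 controls (log2 difference 1.16 ± 0.068). MRPL24, a large-subunit protein with a bacterial relative, ran the other way, at 38.2 and 36.9 CPM in MOLM13 controls, against 96.3 and 103 CPM in OCIAML5 controls (log2 difference -1.41 ± 0.072). MRPL48, MRPS21 and MRPS30 were also lower in MOLM13, with log2 differences of -0.74, -0.63 and -0.51.

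The OCIAML5 controls of the experiments also differed from each other. For PU.1-experiment minus PSPC1-experiment controls, 25 of 77 members were higher and 9 were lower, where 20.0% and 18.9% of all genes were, and the member median was 0.15. MRPL34 stood at 64.9 and 60.2 CPM in the PU.1-experiment controls and 28.1 and 32.4 CPM in the PSPC1-experiment controls, each table scaled on its own. Against the PU.1-experiment controls, PSPC1 knockdown in OCIAML5 gave a member median of -0.41 in place of -0.29 with 51 members lower in place of 41, where 32.8% of all genes were lower and 31.4% higher, and MRPL34 had a log2 fold change of -0.75 in place of 0.25. Against the PSPC1-experiment controls, PU.1 knockdown gave a member median of -0.16 in place of -0.28 with 12 members higher in place of 4 and 39 lower in place of 52, where 26.9% of all genes were higher and 29.2% lower, and MRPL34 had 0.67 in place of -0.31. The effects quoted elsewhere use the controls of the same experiment.

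Some members have known roles beyond the ribosome or unusual histories. MRPL12, a stalk protein that also binds the mitochondrial RNA polymerase, stood at 7.51 and 9.26 CPM in MOLM13 with PSPC1 knockdown, against 13.3 and 13.4 CPM in the controls (log2 fold change -0.67, adjusted p = 0.00245). It also fell with PU.1 knockdown, at 11.1 and 12.9 CPM, against 21.2 and 17.8 CPM in the controls, and had no call with PSPC1 knockdown in OCIAML5. Its exons share 68.2% of their bases with AC139530.2 on the same strand, and the part of this in its level was not tested. MRPS30 fell in all 3, and stood at 51.8 and 57.1 CPM in MOLM13 with PSPC1 knockdown, against 95.2 and 97.7 CPM in the controls.

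MRPS18A, MRPS18B and MRPS18C are paralogs of the bacterial S18 family, of which only MRPS18C carries a systematic name shared with bacteria. MRPS18A sits in the large subunit and the other two in the small subunit. MRPS18B stood at 59.7 and 61.7 CPM in OCIAML5 with PSPC1 knockdown, against 82.1 and 92.1 CPM in the controls (log2 fold change -0.52 ± 0.064). In MOLM13 it stood at 107 and 107 CPM with PSPC1 knockdown, against 114 and 117 CPM in the controls, with no call. MRPS18A and MRPS18C had no call in any knockdown, with log2 fold changes between -0.17 and 0.16. Exons of MRPS18A share 47.0% and those of MRPS18C 40.2% of their bases with genes on the opposite strand. MRPS36, which is no ribosome subunit, also had no call, with log2 fold changes of 0.23, 0.16 and 0.04.

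Exon length here is that of all GENCODE exons of a gene merged, which can exceed the length of the expressed transcript, and the ranking depends on it. MRPS27, at a mean of 132 CPM, had 6511 such bases and ranked 28 per kilobase. Per kilobase of exon, the mean over the 6 groups was highest for MRPL15 at 82.6 CPM per kb, MRPS34 at 57.8 and MRPS26 at 48.6. It was lowest for MRPL46 at 0.691 CPM per kb, MRPS24 at 0.133 and MRPL53 at 0.0037. MRPL53 had 1 count in 1 library and was never tested. MRPS24, the relative of bacterial S3, passed the filter on low counts only in the PU.1 and joined tables, and it had no call there (log2 fold change 0.44, adjusted p = 0.477 with PU.1 knockdown). Exons of MRPL53 share 45.2% of their bases with CCDC142 and those of MRPS24 share 23.2% with URGCP-MRPS24, both on the same strand. The part of these overlaps in the low levels was not tested. In all, 26 members share 10% or more of their exon bases with another gene. The 52 others had medians of -0.40, -0.30 and -0.26 in the 3 knockdowns, with 33, 30 and 35 lower and 2, 3 and 3 higher.

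For the gene lists that follow, counts and medians are given for MOLM13 and then OCIAML5 with PSPC1 knockdown, with PU.1 knockdown last, and the shares of all genes were 29.5%, 28.4% and 30.9% lower and 27.6%, 27.5% and 29.6% higher. Of 5 mitochondrial ribosome proteins that carry other names, 3 were lower with PSPC1 knockdown in MOLM13, 4 with PSPC1 knockdown in OCIAML5 and 4 with PU.1 knockdown, and none was higher, with medians of -0.32, -0.24 and -0.31. AURKAIP1, of the small subunit, stood at 43.2 and 37.2 CPM in MOLM13 with PSPC1 knockdown, against 71.2 and 69.9 CPM in the controls. Its log2 fold changes were -0.82, -0.74 and -0.56. Among 25 assembly factors, 13, 13 and 16 were lower and 2, 5 and 3 were higher, with medians of -0.38, -0.30 and -0.30. RPUSD4, which modifies the large ribosomal RNA, stood at 19.0 and 19.8 CPM with PU.1 knockdown, against 66.4 and 66.0 CPM in the controls. MTERF4, a partner of the methyltransferase NSUN4, was instead higher in all 3, with log2 fold changes of 0.39, 0.70 and 0.21. Exons of MTERF4 share 51.0% of their bases with SNED1 on the opposite strand, and the part of this in its level was not tested.

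Among 15 mitochondrial translation factors, 6, 5 and 8 were lower and 1 was higher in each knockdown, with medians of -0.13, 0.11 and -0.24. The 5 of 15 lower with PSPC1 knockdown in OCIAML5 lie near the share of all genes. TUFM, the mitochondrial elongation factor Tu, stood at 271 and 286 CPM in MOLM13 with PSPC1 knockdown, against 354 and 354 CPM in the controls, and its log2 fold changes were -0.34, -0.31 and -0.50. Among 12 genes of mitochondrial transcription and RNA processing, 8, 7 and 8 were lower and 0, 1 and 0 were higher, with medians of -0.36, -0.38 and -0.30. ELAC2, which cuts the 3′ ends of tRNAs, stood at 37.6 and 38.8 CPM in MOLM13 with PSPC1 knockdown, against 136 and 137 CPM in the controls, with log2 fold changes of -1.84, -1.55 and -0.03. TFAM, which packages mitochondrial DNA, had -0.90, -0.54 and -0.30.

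Of 9 tested nuclear regulators of mitochondrial biogenesis, 8 were lower in each knockdown and none was higher, with medians of -0.54, -0.54 and -0.45. GABPA, the DNA-binding subunit of the ETS-family factor GABP, stood at 48.6 and 41.2 CPM in MOLM13 with PSPC1 knockdown, against 63.7 and 65.4 CPM in the controls, and its log2 fold changes were -0.53, -0.66 and -0.27. PPRC1, a coactivator related to PGC-1, had -0.75, -0.62 and -0.45. MYC stood at 157 and 150 CPM in MOLM13 with PSPC1 knockdown, against 602 and 599 CPM in MOLM13 controls. In OCIAML5 it stood at 630 and 634 CPM with PU.1 knockdown, against 665 and 636 CPM in its controls. Its log2 fold changes were -1.97, -1.60 and -0.04, and the last had no call (adjusted p = 0.355). The part of these genes in the members' changes was not tested.

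The messages of mitochondrial DNA are the substrates of this ribosome. Of 13, 12 were higher with PSPC1 knockdown in MOLM13, with a median log2 fold change of 0.24, and 8 were higher and 2 lower in OCIAML5, with a median of 0.22. With PU.1 knockdown 8 were lower and 1 was higher, with a median of -0.14. MT-CO1, a core subunit of cytochrome oxidase, had log2 fold changes of 0.46, 0.52 and 0.18. The ribosomal RNAs MT-RNR1 and MT-RNR2 had 0.35 and 0.46 in MOLM13, -0.26 and 0.25 with PSPC1 knockdown in OCIAML5, and -0.71 and -0.14 with PU.1 knockdown. The libraries were made with an mRNA kit, and how well it captured these RNAs was not tested.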

How the data were processed

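RNA was extracted with TRIzol and made into libraries with a stranded mRNA kit, per the labels' protocols. The authors deposited 2 tables of raw counts per gene. GRCh38 was the build, and HTSeq 2.0.2, STAR 2.7.10a, DESeq2 1.36.0 and Trim Galore 0.6.7 were used in roles not stated, per the submitters' processing notes. The sources used here give neither annotation release nor strand setting. The members and the other gene lists were chosen with earlier results of these data known.

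The 12 libraries formed 6 groups by their labels. Counts were fitted in R 4.3.3 with edgeR 4.0.16 (filterByExpr, TMM scaling, quasi-likelihood F tests), with 1 model for the PSPC1 table, 1 for the PU.1 table and 1 for the 8 OCIAML5 libraries joined. P-values were two-sided and were adjusted by Benjamini-Hochberg over the 16457, 16861 and 17159 genes tested. The biological coefficient of variation was 4.73%, 4.08% and 4.5%. The variance between the libraries of a group was 2.62 to 5.35 times that of counting alone.

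Named members were the 5 largest called changes each way per knockdown, the 10 called alike in all 3 with the largest smallest change, in every test of a difference the 4 members furthest out on each side, the 3 highest and 3 lowest per kb, and MRPL12, MRPL58, MRPS18A, MRPS18B, MRPS18C, MRPS30 and MRPS36. Each partner list gave the 2 genes with the smallest adjusted p per knockdown, and only some of these are described. For the nuclear regulators with PU.1 knockdown they were PPARGC1B and YY1, whose single values are not given here. Other members were named after their values were seen: MRPL16, MRPL34 in OCIAML5, GABPA and the members of counts of 5 or fewer. Alternatives were DESeq2 1.42.0, RLE size factors, library size alone, other filters on low counts, a replicate block, fewer libraries, a stricter threshold, leaving out each library and, chosen after the data were seen, other controls, members with under 10% exon overlap, the sum without MRPS27 and shorter motif letters. The fit was tested on simulated data. Positions and exon lengths are from GENCODE on GRCh38, and promoter sequences from RefSeq. Replicate numbers gave no sign of a pairing of libraries. Plots were drawn with matplotlib 3.10.9 in Python 3.11.15. Protein levels were not analysed here.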

Additional observations from a re-analysis of the deposited data

Results flagged for a closer look

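Some members had a PSPC1 effect that differed between lines by a test of the difference itself (OCIAML5 minus MOLM13, log2, edgeR's quasi-likelihood test). The largest upward were MRPS28 at 0.94 (adjusted p = 0.0259), MRPS12 at 0.68 (4.71e-05), MRPS6 at 0.64 (0.0187) and MRPL14 at 0.61 (0.00263). The largest downward were MRPL55 at -0.71 (0.0129), MRPL1 at -0.49 (0.000799), MRPS18B at -0.41 (0.000185) and MRPL24 at -0.32 (0.015). That test used the OCIAML5 controls of the PSPC1 experiment alone. PU.1-experiment minus PSPC1-experiment controls differed by 0.79 in MRPS28, 0.54 in MRPS12, 0.49 in MRPL14, -0.47 in MRPL1 and -0.54 in MRPS18B (log2, all called). They differed by 0.21 in MRPS6, 0.26 in MRPL55 and -0.05 in MRPL24, with no call. The differences between lines were not tested with the other controls. MRPS28, at 4.75 and 5.45 CPM in MOLM13 with PSPC1 knockdown, against 10.0 and 8.90 CPM in the controls, lost its call without either OCIAML5 knockdown library, MOLM13 knockdown 1, MOLM13 control 1 or OCIAML5 control 2 (adjusted p of 0.0516 to 0.0915). MRPL24 lost it without replicate 2 of any of the 4 groups (0.0578 to 0.0829), MRPS6 without MOLM13 knockdown 1, MOLM13 control 2 or OCIAML5 knockdown 2 (0.0502 to 0.176), and MRPL55 without MOLM13 knockdown 1 or OCIAML5 control 2 (0.143 to 0.194).

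Between the knockdowns in OCIAML5 (PU.1 minus PSPC1, log2), the differences were MRPL14 at -1.16 (adjusted p = 5.57e-08), MRPL13 at -1.06 (2.01e-11), MRPL49 at -0.92 (1.03e-08) and MRPL18 at -0.86 (6.72e-09), and MRPL17 at 1.09 (6.56e-10), MRPS27 at 0.90 (2.91e-14), MRPL58 at 0.83 (4.65e-06) and MRPS33 at 0.58 (0.000864). The knockdowns came from separate experiments, so knockdown target and experiment cannot be told apart.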

How the results depend on the processing

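With library size alone as the scale, the member medians were -0.35 for PSPC1 knockdown in MOLM13, -0.21 for PSPC1 knockdown in OCIAML5, -0.13 for PU.1 knockdown and 0.15 for MOLM13 minus OCIAML5 controls. The log2 ratios of the summed levels were -0.35, -0.19 and -0.15, and 12 members were higher with PU.1 knockdown. The median difference between the knockdowns changed sign, at 0.0030 against -0.05, and so did MRPS18B at 0.01 and MRPS21 at 0.13 with PU.1 knockdown. That scale moved the median of all genes by 0.05, 0.08 and 0.15 in the knockdowns. For MOLM13 with PSPC1 knockdown the median was -0.38 with DESeq2, -0.37 with RLE size factors, -0.42 with no filter and -0.39 with at least 1 CPM in 2 libraries. For PU.1 knockdown it was -0.31 with DESeq2, -0.25 with the CPM filter and -0.26 over members with under 10% exon overlap, and between the lines' controls 0.24 with no filter. At an adjusted p of 0.01, 2 members were negative in the difference between lines and 10 in that between knockdowns. The causes were not tested.

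With the controls of the other OCIAML5 experiment, chosen after seeing the data, the median was -0.41 for PSPC1 knockdown, where MRPS28 (-0.77), MRPL34 (-0.75) and MRPS18A (0.60) changed sign. For PU.1 knockdown it was -0.16 with 12 members higher, and MRPS12 (0.0013), MRPS28 (0.14), MRPL34 (0.67) and MRPL12 (0.047) changed sign.

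Without 1 library at a time, medians ran from -0.42 to -0.35 for PSPC1 knockdown in MOLM13, -0.33 to -0.24 in OCIAML5, -0.31 to -0.28 for PU.1 knockdown, 0.10 to 0.25 for the difference between lines, and -0.071 to 0.027 for the difference between knockdowns, where the positive value came without OCIAML5 control 1 of the PSPC1 experiment. Higher members in MOLM13 numbered 2 to 3, with 2 without MOLM13 control 1. Negative members numbered 2 to 5 between lines and 9 to 20 between knockdowns. Of 632 values of named genes without 1 library, some crossed the threshold, and none changed sign where either fit gave a call. Changes of sign where neither fit gave a call were not counted.

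The replicate numbers gave no sign of a pairing of libraries. Per gene, the difference between the knockdown replicates was set against that between the control replicates, taken in the same order. Across genes these differences correlated at 0.013 for PSPC1 knockdown in MOLM13, 0.0015 for PSPC1 knockdown in OCIAML5 and -0.025 for PU.1 knockdown. With the replicate number as a block, 46, 41 and 51 members were lower and 4, 7 and 4 higher in the 3 knockdowns. Low counts limit MRPL53, MRPS24, MRPL2 and MRPS28.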
